A study of Mus musculus with 6 samples.

Results

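Immediate-early genes are transcribed within minutes of a stimulus without new protein synthesis, and the set analysed here holds 37 of them together with related genes induced by stress. The members were all genes whose symbol in the count files belonged to a given list of AP-1, EGR, KLF, DUSP and other early genes, with the NR4A receptors left out. All 37 were found among the 27179 genes of the files, and they were compared between quadriceps muscle of 3 miDrp1KO mice and 3 control mice.

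As background, growth factors, contraction, calcium and stress reach these genes through the ERK, p38 and JNK kinases, which phosphorylate factors already bound at the promoters, such as SRF with its ternary complex partners, CREB and MEF2. The early factors in turn switch on later genes, while early phosphatases, RNA-binding proteins and cytokine inhibitors end the signal. In skeletal muscle, early genes respond to exercise, fasting hormones, injury and loss of innervation, and their transcripts are short-lived.

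The study addressed what acute loss of Drp1, the mitochondrial fission GTPase encoded by Dnm1l, does to muscle and to Erk1/2 signalling. The miDrp1KO mice carried floxed Dnm1l and HSA-MerCreMer, a Cre under the human skeletal actin promoter that tamoxifen activates in muscle fibres, so that vessels, connective tissue and immune cells of the same muscle kept the gene. Controls are labelled Control f/f, and the methods of the study describe its controls as flox/+ or flox/flox without naming Cre. All mice received tamoxifen at 3 months of age, were backcrossed to C57BL/6J and, per the labels, ate normal chow, and quadriceps was taken 3 weeks after deletion. Replicates B, C and D were controls and replicates A, E and F were miDrp1KO, each library being a separate mouse as titled.

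Libraries held 13989588 to 62042255 counts, with control C the shallowest and control D the deepest. Levels are given as CPM, the count scaled to a common library size after TMM normalization, and a floor of 3 counts corresponded to 0.05 CPM in control D and 0.219 CPM in control C. Ribosomal RNA genes took 3.36% to 15.6% of the counts in controls and 1.48% to 24.4% in miDrp1KO libraries, with 23.0% in replicate A, 24.4% in F and 1.48% in E. Fast fibre markers summed to 167200, 186100 and 188400 CPM in control B, C and D. They summed to 145600, 84780 and 104400 CPM in miDrp1KO A, E and F, each below every control. Dnm1l stood at 156, 114 and 140 CPM in controls and at 70.6, 81.3 and 66.2 CPM in miDrp1KO libraries, so the groups did not overlap (log2 fold change −0.91, SE 0.18, edgeR adjusted p = 0.362), and DESeq2 called it (adjusted p = 0.0033). These counts cover the whole Dnm1l gene and come from all cells of the muscle. In bulk tissue, fewer cells of a type and less RNA per cell cannot be told apart.

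The early genes leaned toward higher levels in miDrp1KO muscle, but none passed the test over all genes. Of the 37 members, 34 were abundant enough to test, and 0 of these reached an adjusted p of 0.05 in edgeR's quasi-likelihood test, against 0.0121% of the 16483 genes tested (2 genes). At an unadjusted p under 0.05, 6 of 34 members (17.6%) were higher in miDrp1KO libraries, against 4.68% of all genes, and 0 were lower, against 6.22%. These were Junb, Klf4, Ier3, Klf2, Rgs2 and Socs3. In 6 members (17.6%) every miDrp1KO library lay above every control library, against 7.67% of all genes, and in 0 members every miDrp1KO library lay below, against 10.3%. These were Junb, Klf4, Ier3, Myc, Rgs2 and Socs3. For both directions together the share without overlap was 17.6% of members and 18.0% of all genes. The number without overlap depended on the scaling, and was 11 with upper quartile normalization and 10 with the ribosomal RNA genes and Lars2, a gene that can take up ribosomal reads, left out (32.4% and 29.4% of members, against 17.8% and 17.9% of all genes).

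The median log2 fold change of the 34 tested members was 0.30 (quartiles −0.00056 and 0.52), and that of all tested genes was 0.017 (quartiles −0.21 and 0.28). A fitted change above 0 was seen in 24 members (70.6%) against 52.0% of all genes. A fitted change above 1 was seen in 4 members (11.8%), Socs3, Cebpd, Junb and Gadd45g, against 3.35% of all genes. No member had a fitted change below −1, against 0.558% of all genes. In the plot of fitted changes, 5 of the 6 members with an unadjusted p under 0.05 are also members without overlap, Klf2 being the exception.

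**Figure D1:**
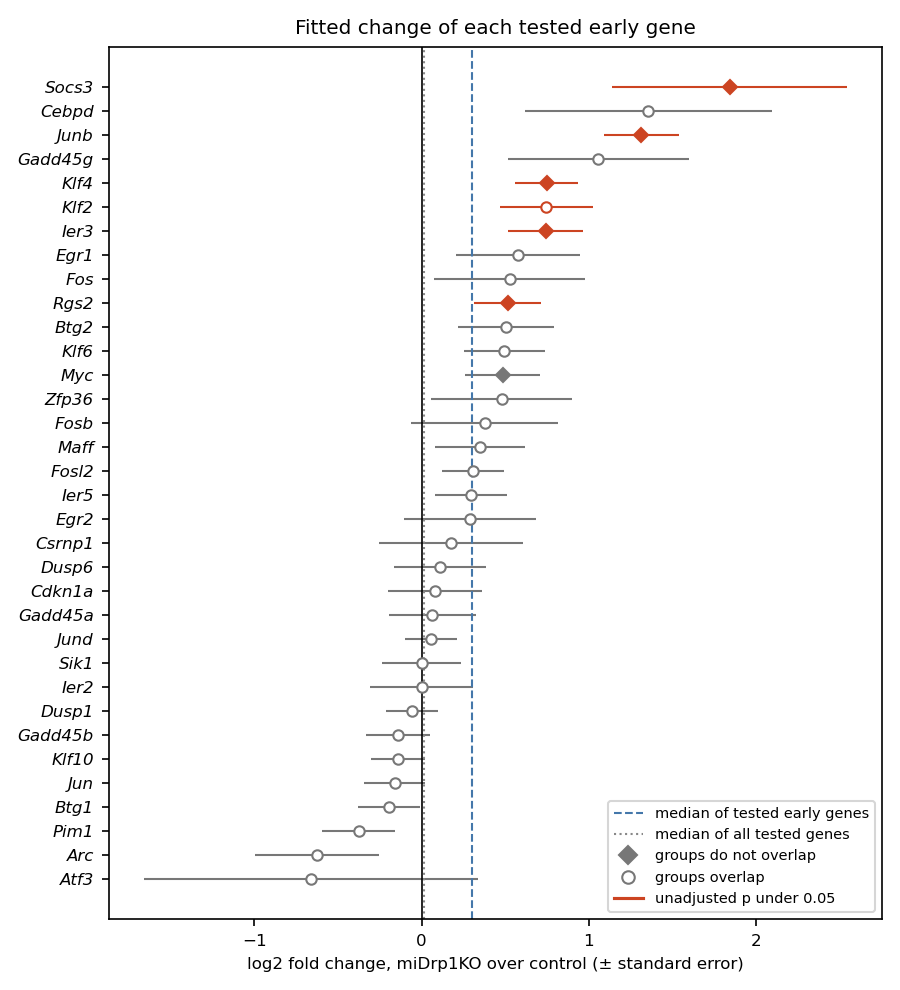
Fitted log2 fold change of miDrp1KO over control (horizontal axis) for each of the 34 tested early genes, ordered by size, with bars of 1 standard error. Diamonds are genes whose groups do not overlap, red marks an unadjusted p under 0.05, the dashed line is the members' median of 0.30 and the dotted line the median of all tested genes, 0.017.

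Promoter sequences are shown for the 5 members that were both higher at an unadjusted p under 0.05 and without overlap between the groups, to show which motifs of the factors that act on early genes each upstream region holds or lacks. Motifs were chosen with the values of the members known, and were searched on both strands in the 250 bases before each annotated start in RefSeq (GRCm38.p6), where 28 of 37 members and 27025 genes have a window. The motifs were the CArG box bound by SRF, the full CRE TGACGTCA and its core TGACG bound by CREB and ATF proteins, the AP-1 element TGANTCA, the EGR element GCGNGGGCG and the STAT element TTCNNNGAA. Every TGACGTCA match is also a TGACG match. Bases inside annotated exons were left off. Capitals mark motif matches, read on either strand, and each sequence runs 5′ to 3′ on the strand of its gene.
Junb, chr8:84978749-84978998, minus strand, bases 250 to 1 before the start: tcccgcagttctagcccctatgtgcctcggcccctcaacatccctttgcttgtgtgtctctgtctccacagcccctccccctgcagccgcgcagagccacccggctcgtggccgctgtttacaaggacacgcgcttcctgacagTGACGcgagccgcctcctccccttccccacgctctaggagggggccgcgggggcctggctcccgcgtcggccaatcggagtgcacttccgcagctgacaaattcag
Klf4, chr4:55532476-55532725, minus strand, bases 250 to 1: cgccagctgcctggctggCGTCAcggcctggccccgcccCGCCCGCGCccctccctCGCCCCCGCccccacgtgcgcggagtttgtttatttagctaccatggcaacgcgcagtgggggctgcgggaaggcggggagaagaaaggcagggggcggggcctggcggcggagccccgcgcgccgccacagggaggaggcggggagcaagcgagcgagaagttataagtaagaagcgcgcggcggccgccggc
Ier3, chr17:35821463-35821683, plus strand, bases 250 to 30: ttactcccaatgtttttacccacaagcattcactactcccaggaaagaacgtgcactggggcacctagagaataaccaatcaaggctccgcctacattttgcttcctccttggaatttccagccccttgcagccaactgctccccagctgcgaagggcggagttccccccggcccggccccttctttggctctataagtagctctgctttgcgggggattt
Rgs2, chr1:144004162-144004399, minus strand, bases 250 to 13: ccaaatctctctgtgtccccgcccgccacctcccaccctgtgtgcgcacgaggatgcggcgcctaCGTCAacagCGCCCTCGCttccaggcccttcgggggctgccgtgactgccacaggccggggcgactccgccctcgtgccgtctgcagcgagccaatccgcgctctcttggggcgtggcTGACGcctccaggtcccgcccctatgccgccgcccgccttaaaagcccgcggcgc
Socs3, chr11:117969452-117969616, minus strand, bases 250 to 86, inside the annotated gene span but outside its exons: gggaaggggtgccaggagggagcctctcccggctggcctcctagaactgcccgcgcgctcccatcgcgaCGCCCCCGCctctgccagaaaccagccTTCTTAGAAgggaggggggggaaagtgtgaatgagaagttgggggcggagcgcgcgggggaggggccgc

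The Junb window held the TGACG core 106 to 102 bases before the start. The Klf4 window held TGACG at 232 to 228 and the EGR element at 211 to 203 and 194 to 186. Rgs2 held TGACG at 185 to 181 and 67 to 63 and the EGR element at 176 to 168, and Socs3 held the EGR element at 181 to 173 and the STAT element at 154 to 146. None of these motifs was in the Ier3 window. The 5 genes thus share no single one of these motifs.

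Over the members as a whole, TGACG was in 14 of 28 members against 19.8% of all genes, and GCGNGGGCG in 10 (35.7%) against 5.33%. The CArG box was in 3 members (Dusp5, Egr2 and Zfp36, 10.7%) against 1.62%, and TGACGTCA in 3 (Btg2, Dusp1 and Maff, 10.7%) against 1.77%. The AP-1 element was in 1 member (Csrnp1, 3.57%) against 7.82%, and the STAT element in 2 (Socs3 and Zfp36, 7.14%) against 8.13%. Klf10, Egr1, Ier2, Myc, Sik1, Egr3, Cebpd, Arc and Fosl1 have no window in the table. These are letter matches in a window, not measured binding.

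AP-1 is a dimer of a JUN protein with a FOS, FOSL, ATF or MAF relative, and of its 9 subunit genes here Junb stood apart. Junb (chromosome 8, 84976909 to 84978748), a factor known to maintain muscle mass, was at 7.24, 6.63 and 7.58 CPM in control B, C and D. It was at 24.0, 12.9 and 16.7 CPM in miDrp1KO A, E and F. The lowest miDrp1KO library was thus 1.71-fold above the highest control. The group means were 7.15 ± 0.48 and 17.9 ± 5.60 CPM (SD, n = 3 each), a 2.5-fold difference, with a log2 fold change of 1.31 (SE 0.23, unadjusted p = 0.000112, adjusted p = 0.308 by edgeR). A two-sided exact permutation test of 3 against 3 gave p = 0.1, the smallest it allows, as it does for every member without overlap. Without replicate A the log2 fold change of Junb was 1.07. DESeq2 called Junb (adjusted p = 0.0015), and across the alternatives the adjusted p ran from 0.0015 to 0.877. Junb shares 173 exonic bases with Prdx2 on the opposite strand, and whether counting used the strand is not given in the sources used here.

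The other AP-1 genes did not separate by genotype. Jun (chromosome 4, 95049036 to 95052222), the core subunit and the member at the highest level per kilobase in controls, read 106, 90.1 and 92.7 CPM in controls and 105, 74.1 and 79.6 CPM in miDrp1KO libraries. Per kilobase of exon Jun was at 30.2 CPM per kb in controls and 27.0 in miDrp1KO, and Junb at 3.11 and 7.77. The groups overlapped for Jun (log2 fold change −0.16, SE 0.18, adjusted p = 0.783), and per kilobase Jun stayed above Junb in both. Jund, the constitutive family member, varied least, from 11.7 to 13.2 CPM over the 6 libraries, with a log2 fold change of 0.055 (SE 0.16). Fos, the classic partner induced by SRF, read 2.56, 2.92 and 6.8 CPM in controls and 9.28, 4.09 and 4.99 CPM in miDrp1KO libraries. Its groups overlapped, and its log2 fold change of 0.53 (SE 0.45) became 0.12 without replicate A and 1.18 without control D.

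Atf3, a stress-induced AP-1 relative, was the most uneven member among the controls, at 12.0, 1.82 and 28.0 CPM against 4.52, 9.41 and 13.1 CPM in miDrp1KO libraries. Its coefficient of variation in controls was 94.7%, above that of 98.6% of all tested genes. The fitted log2 fold change of −0.66 (SE 0.999) became 0.38 without control D and −1.19 without control C. Fosl2, Maff and Fosb were fitted higher by 0.31, 0.35 and 0.38 on the log2 scale with overlapping groups (adjusted p 0.575 to 0.789). Fosl1 was below the filter, with 0 to 4 counts in any library. In all, 6 of 8 tested AP-1 genes were fitted higher and 2 (Jun and Atf3, the latter by a sign that rests on control D) lower, with a median of 0.33.

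**Figure D2:**
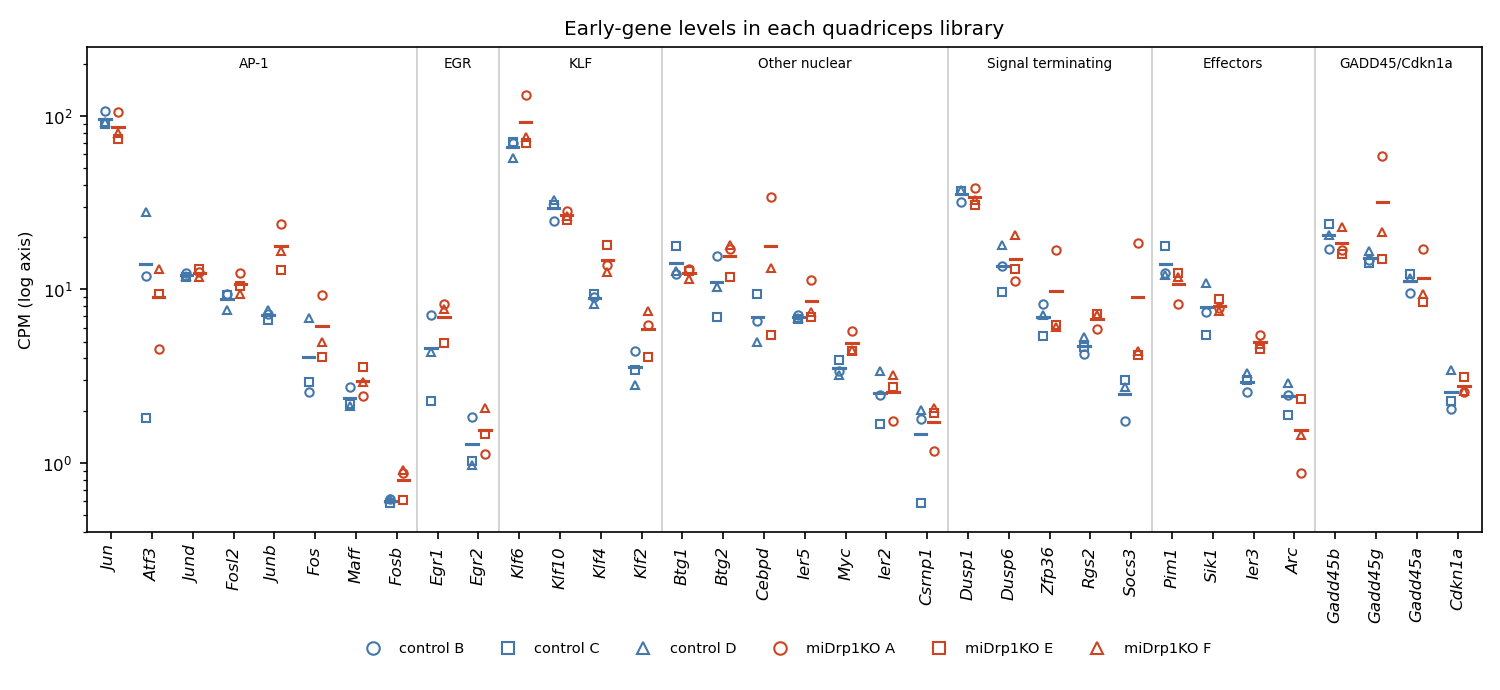
Level in CPM (vertical log axis) of the 34 tested early genes in each library, grouped by role and, within a role, ordered by control mean CPM. Blue symbols are control B, C and D, red symbols miDrp1KO A, E and F, and short bars the group means. Red points lie wholly above blue points for Junb, Klf4, Myc, Rgs2, Socs3 and Ier3.

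EGR proteins are zinc finger factors whose genes are classic targets of ERK signalling at SRF-bound promoters. Egr1 read 7.10, 2.26 and 4.38 CPM in controls and 8.21, 4.93 and 7.68 CPM in miDrp1KO libraries. The groups overlapped through control B (means 4.58 ± 2.43 and 6.94 ± 1.76 CPM, SD, n = 3 each), and the log2 fold change was 0.58 (SE 0.37, adjusted p = 0.601). It ran from 0.26 without control C to 1.03 without control B. Egr2 had a log2 fold change of 0.29 (SE 0.39). Egr3 was below the filter with 0 to 18 counts per library.

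KLF genes encode zinc finger factors of vessels, epithelia, immune cells and muscle, and here Klf4 and Klf2 were higher at an unadjusted p under 0.05. Klf4 (chromosome 4, 55527137 to 55532475), a factor known from endothelium, smooth muscle and macrophages, was at 9.0, 9.4 and 8.26 CPM in controls and at 13.8, 18.1 and 12.6 CPM in miDrp1KO libraries. The lowest miDrp1KO value was 1.34-fold above the highest control. The means of 8.89 ± 0.58 and 14.8 ± 2.89 CPM (SD, n = 3 each) gave a log2 fold change of 0.75 (SE 0.19, unadjusted p = 0.0020, adjusted p = 0.362). Klf4 was highest in replicate E, not A, and without A its log2 fold change was 0.82. Klf2 (chromosome 8, 72319062 to 72321654), the shear-stress factor of endothelium, was at 4.4, 3.43 and 2.81 CPM in controls and at 6.27, 4.07 and 7.49 CPM in miDrp1KO libraries. Replicate E fell inside the control range, and the log2 fold change was 0.75 (SE 0.28, unadjusted p = 0.021, adjusted p = 0.393).

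Klf6, an injury-induced factor and the KLF at the highest level per kilobase, read 69.6, 71.2 and 57.0 CPM in controls and 133, 69.7 and 76.0 CPM in miDrp1KO libraries. Its log2 fold change of 0.49 (SE 0.24, adjusted p = 0.491) was 0.17 without replicate A. Klf10, a TGF-beta-inducible repressor, ran from 24.8 to 32.8 CPM over all libraries (log2 fold change −0.14, SE 0.16).

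Among the endothelial markers, 0 of 10 passed an unadjusted p of 0.05 in either direction, and they summed to 204 to 370 CPM in controls and 222 to 330 CPM in miDrp1KO libraries (median log2 fold change −0.079). Smooth muscle and pericyte markers summed to 147 to 232 CPM in controls and 158 to 239 CPM in miDrp1KO libraries. Of the macrophage markers, 5 of 10 were higher and 0 lower at an unadjusted p under 0.05, against 4.68% and 6.22% of all genes. Their median log2 fold change was 0.58, and the sums were 145, 272 and 161 CPM in controls against 257, 243 and 240 CPM in miDrp1KO libraries. The sums overlapped through control C, which held the highest sum of all libraries. Adgre1, which encodes the macrophage marker F4/80, was at 4.36, 11.4 and 5.88 CPM in controls and 6.61, 7.60 and 6.24 CPM in miDrp1KO libraries. The part of these cells in the values of Klf4, Klf2 or the other members was not tested.

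Other nuclear regulators included 1 member without overlap, Myc (chromosome 15, 61985341 to 61990361), a transcription factor that drives cell growth. Myc was at 3.36, 3.94 and 3.21 CPM in controls and at 5.78, 4.39 and 4.46 CPM in miDrp1KO libraries, so that the lowest miDrp1KO library exceeded the highest control by 1.11-fold. Its log2 fold change was 0.48 (SE 0.23, unadjusted p = 0.0554, adjusted p = 0.467) and 0.37 without replicate A.

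Cebpd, a factor induced by cytokines and glucocorticoids, had the second-largest fitted change, but it came from an uneven group. It read 6.53, 9.4 and 4.96 CPM in controls and 34.3, 5.49 and 13.2 CPM in miDrp1KO A, E and F. Replicate E lay below control B and control C, and the log2 fold change of 1.36 (SE 0.74, adjusted p = 0.574) was 0.46 without replicate A. Btg2, an antiproliferative cofactor and the highest of this role per kilobase in controls, was at 15.7, 6.92 and 10.3 CPM against 17.1, 11.9 and 18.1 CPM (log2 fold change 0.51, SE 0.29). Btg1, its relative, was at 12.3, 17.8 and 12.8 CPM against 13.03, 12.8 and 11.5 CPM (log2 fold change −0.20, SE 0.19). Ier5, Csrnp1 and Ier2 had fitted changes of 0.30, 0.18 and −0.00062, all with overlap.

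Signal-terminating genes had the largest fitted change of all members. Socs3 (chromosome 11, 117966079 to 117970336), the STAT3-induced inhibitor of cytokine receptor signalling, was at 1.75, 2.99 and 2.75 CPM in controls and at 18.5, 4.17 and 4.42 CPM in miDrp1KO libraries. Each miDrp1KO library was above each control, by at least 1.39-fold, yet replicate A was far above E and F. The means were 2.5 ± 0.66 and 9.02 ± 8.19 CPM (SD, n = 3 each), and the log2 fold change was 1.84 (SE 0.70, unadjusted p = 0.0425, adjusted p = 0.443). Without replicate A it was 0.80 (unadjusted p = 0.0204, adjusted p = 0.206). Rgs2 (chromosome 1, 143999338 to 144004149), which shuts off G protein signalling from Gq-coupled receptors, was at 4.21, 4.66 and 5.28 CPM in controls and at 5.93, 7.23 and 7.15 CPM in miDrp1KO libraries. Here replicate A was the lowest of the miDrp1KO libraries. The log2 fold change was 0.52 (SE 0.20, unadjusted p = 0.0259, adjusted p = 0.409), and 0.62 without replicate A.

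The ERK and MAPK phosphatases did not separate the groups. Dusp1, the highest of this role per kilobase, was at 31.9, 36.9 and 37.6 CPM in controls and at 38.6, 30.9 and 32.8 CPM in miDrp1KO libraries (log2 fold change −0.058, SE 0.16). Dusp6, the cytoplasmic ERK phosphatase whose transcript follows ERK activity, was at 13.6, 9.62 and 17.9 CPM against 11.1, 13.1 and 20.5 CPM (log2 fold change 0.11, SE 0.28, adjusted p = 0.917). Both genotypes covered nearly the same range for Dusp6. Dusp5, the nuclear ERK phosphatase, was below the filter with 2 to 14 counts. Zfp36, which destabilises early and cytokine transcripts, was at 8.24, 5.39 and 7.13 CPM against 16.9, 6.23 and 6.09 CPM, so its fitted change of 0.48 (SE 0.42) came with a single high library and was −0.15 without it.

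Of the early effectors, Ier3 was higher at an unadjusted p under 0.05 and without overlap, and the other genes had overlapping groups. Ier3 (chromosome 17, 35821713 to 35822911), a survival protein that prolongs ERK phosphorylation, was at 2.56, 2.99 and 3.28 CPM in controls and at 5.49, 4.53 and 4.85 CPM in miDrp1KO libraries. These were among the tightest miDrp1KO values of the higher members, with a coefficient of variation of 9.85%. The means were 2.94 ± 0.36 and 4.96 ± 0.49 CPM (SD, n = 3 each), a 1.69-fold difference with a log2 fold change of 0.74 (SE 0.22, unadjusted p = 0.0068, adjusted p = 0.379). Ier3 kept an unadjusted p under 0.05 in each of 15 alternatives, its log2 fold change running from 0.67 to 0.86. Pim1, a cytokine-induced kinase and the effector at the highest level per kilobase in controls, was at 12.4, 17.9 and 12.0 CPM against 8.21, 12.4 and 11.8 CPM (log2 fold change −0.38, SE 0.22). Arc, which regulates synapses and is induced by calcium, was at 2.46, 1.89 and 2.88 CPM against 0.875, 2.33 and 1.44 CPM (log2 fold change −0.63, SE 0.37), and −0.34 without replicate A. Sik1, a CREB-induced kinase, had a fitted change of −0.00039.

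GADD45 proteins bind stress kinases and cell cycle regulators, and Cdkn1a encodes p21, the p53-induced cell cycle inhibitor. Gadd45g read 14.8, 14.2 and 16.7 CPM in controls and 59.1, 15.1 and 21.5 CPM in miDrp1KO A, E and F. Replicate E lay within the controls, and the log2 fold change of 1.06 (SE 0.54, unadjusted p = 0.104, adjusted p = 0.550) was 0.28 without replicate A. Gadd45b, at 12.9 CPM per kb in controls, was at 17.0, 23.9 and 20.5 CPM against 17.0, 15.9 and 22.8 CPM (log2 fold change −0.14, SE 0.19). Gadd45a and Cdkn1a had fitted changes of 0.065 and 0.079 with overlap. Of 19 tested p53 targets outside the members, 0 reached an unadjusted p of 0.05 in either direction, and their median was 0.017. The genes with the lowest p among them were Polk (log2 fold change −0.36) and Bax (log2 fold change 0.46).

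The early genes also varied from mouse to mouse within a genotype. Replicate A held the highest value for 14 of the 34 tested members, though it was the highest library for 14.5% of all tested genes. Control C held the lowest value for 13 members, against 19.0% of all genes. The median deviation of the members from their 6-library mean was 0.24 in replicate A, 0.12 in F and −0.017 in E on the log2 scale, and −0.096, −0.27 and −0.099 in control B, C and D. Replicate E was thus the miDrp1KO library nearest to the controls over the members as a whole.

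**Figure D3:**
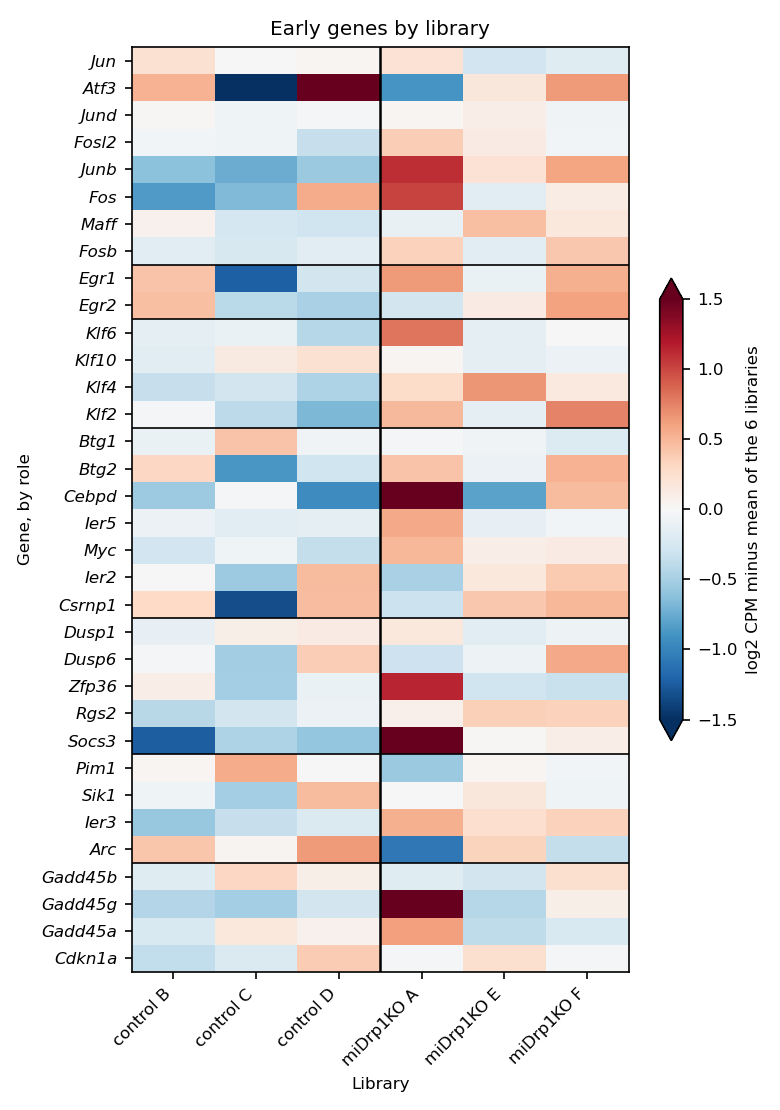
Deviation of each tested early gene (rows, grouped by role) in each library (columns) from its mean over the 6 libraries, in log2 CPM, with colours saturating at 1.5 in either direction. Replicate A is the reddest column for Socs3, Cebpd, Gadd45g, Junb, Zfp36 and Fos, and control C the bluest for Atf3, Csrnp1 and Egr1.

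Replicate A carried Socs3, Cebpd, Gadd45g and Zfp36 at 18.5, 34.3, 59.1 and 16.9 CPM, well above replicates E and F. The coefficients of variation of these genes over the miDrp1KO libraries were 90.8%, 84.3%, 74.6% and 63.7%, exceeding those of 99.3%, 98.8%, 97.6% and 95.5% of all tested genes. Over the members the median coefficient of variation was 18.7% in controls and 23.4% in miDrp1KO, against 16.9% and 20.5% over all genes. Among genes outside the members, the glucocorticoid-induced Mt2, a metallothionein, and Ddit4, an mTORC1 inhibitor, were high in the same library. Mt2 was at 0.615, 1.38 and 1.68 CPM in controls and at 9.82, 3.46 and 3.84 CPM in miDrp1KO A, E and F (log2 fold change 2.16, SE 0.51, adjusted p = 0.362). Ddit4 was at 1.61, 1.60 and 2.22 CPM against 10.8, 1.81 and 3.07 CPM (log2 fold change 1.48, SE 0.69, adjusted p = 0.508). Replicate A was the highest of the 6 libraries for 15 of the 19 tested glucocorticoid-induced genes outside the members, against 14.5% of all genes. Sgk1, a kinase, was at 186, 227 and 176 CPM in controls and at 302, 122 and 163 CPM in miDrp1KO A, E and F. Glul, which encodes glutamine synthetase, was at 245, 289 and 225 CPM against 439, 145 and 208 CPM. In both, replicate A was the highest library and replicates E and F were below every control, and both genes were named after their values were seen. By genotype, 7 of the 19 were fitted higher and 12 lower, with a median of −0.070. At an unadjusted p under 0.05, 1 was higher and 0 lower, against 4.68% and 6.22% of all genes. The part of this pattern in the levels of the early genes was not tested. Ribosomal RNA took 23.0% of the counts in replicate A and 24.4% in F. With the log ribosomal RNA share as a covariate the log2 fold changes of Socs3, Cebpd, Gadd45g and Zfp36 were 1.59, 0.93, 0.82 and 0.37.

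Without replicate A the median of the members was 0.22, and 24 of 34 were fitted higher. All 6 genes with an unadjusted p under 0.05 in the full comparison kept it (Junb, Klf4, Ier3, Klf2, Rgs2 and Socs3). With A left out, 17.5% of all genes were under 0.05 in either direction, up from 10.9%, so the members' 17.6% was at the background. Without A the changes of Klf6 and Fos came to 0.17 and 0.12 and Zfp36 and Gadd45a to −0.15 and −0.29. Over the 15 alternatives run, Junb, Klf4 and Ier3 were under 0.05 in all 15, Klf2 in 13, and Rgs2 and Socs3 in 9 each. Of the single libraries, leaving out control D or miDrp1KO F took Klf2 past 0.05, leaving out control B, control C, miDrp1KO E or miDrp1KO F did so for Rgs2, and leaving out control B, control C or control D did so for Socs3. The plot with and without replicate A shows Klf4, Ier3, Klf2 and Rgs2 near the diagonal and Socs3, Cebpd and Gadd45g well below it.

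**Figure D4:**
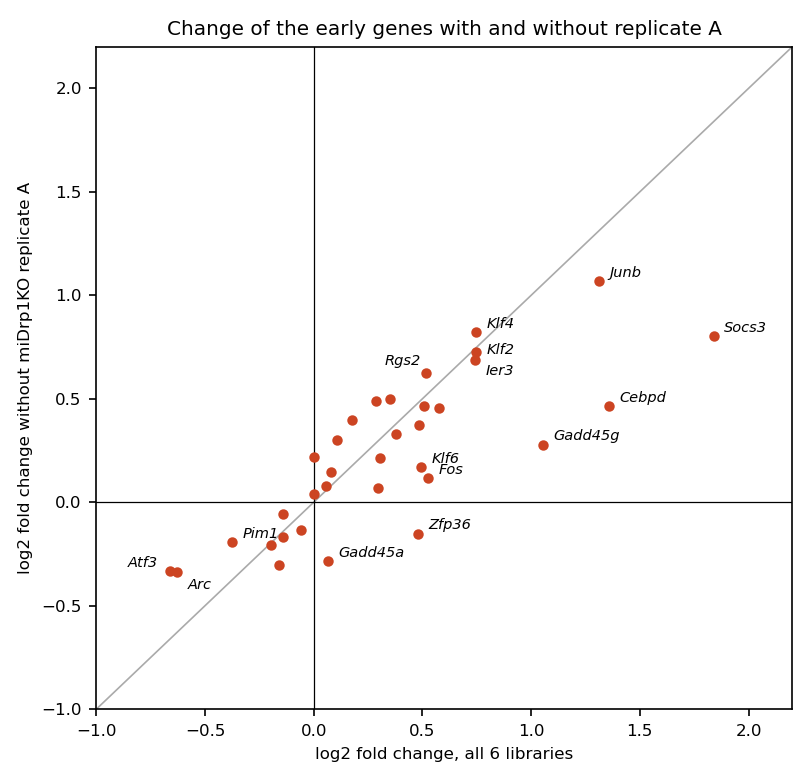
Log2 fold change of each tested early gene with all 6 libraries (horizontal axis) against the value without miDrp1KO replicate A (vertical axis), with the line of equality in grey. Junb goes from 1.31 to 1.07, Socs3 from 1.84 to 0.80, Cebpd from 1.36 to 0.46 and Gadd45g from 1.06 to 0.28.

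Several members shared an order among the controls. Atf3, Ier2, Csrnp1, Sik1 and Dusp6, picked out after their values were seen, were each lowest in control C and highest in control D among the controls. Other members, among them Junb, Gadd45g, Arc and Fosb, had the same order, so it was not particular to these 5. Control C and control D were also the shallowest and the deepest library, and the part of depth in these values was not tested. For each of Atf3, Ier2, Csrnp1, Sik1 and Dusp6 the fitted change turned sign when 1 of control C, control D and miDrp1KO F was left out. Ier2 and Sik1 also turned sign without miDrp1KO A, to 0.22 and 0.040. The signs of these 5 genes in the counts by role thus depend on single libraries.

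The transcripts of the kinases and factors that act on early genes had medians below 0. These lists were written from general knowledge with earlier results of the series known, and no gene in them reached an adjusted p of 0.05. Of 21 ERK cascade kinases and adaptors, 5 were lower and 1 higher at an unadjusted p under 0.05, against 6.22% and 4.68% of all genes, and the median log2 fold change was −0.13. Every miDrp1KO library lay below every control for 6 of the 21 and above for 1, against 10.3% and 7.67% of all genes. Ptpn11, the phosphatase SHP2 that passes receptor signals to RAS, was at 119, 99.5 and 105 CPM in controls and at 79.8, 71.3 and 47.7 CPM in miDrp1KO libraries (log2 fold change −0.70, SE 0.21, adjusted p = 0.379). The groups did not overlap for Ptpn11. Mapk3, which encodes ERK1, had a fitted change of 0.037 (SE 0.21) with overlap.

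Of 14 tested p38 and JNK cascade kinases, 2 were lower and 0 higher at an unadjusted p under 0.05, against 6.22% and 4.68% of all genes. Of these kinases 12 of 14 were fitted lower, and the median was −0.19. Mapk14, which encodes p38 alpha, was at 86.2, 75.2 and 78.5 CPM in controls and at 64.4, 45.4 and 46.1 CPM in miDrp1KO libraries (log2 fold change −0.62, SE 0.18, adjusted p = 0.379). Mapk9, which encodes JNK2, was at 63.6, 75.4 and 78.1 CPM against 60.8, 45.5 and 49.0 CPM (log2 fold change −0.48, SE 0.17, adjusted p = 0.392). Of 21 factors that switch on early genes, 4 were lower and 0 higher at an unadjusted p under 0.05, against the same shares of all genes. The median of these factors was −0.15. Srf, the factor of the CArG box, was at 90.01, 93.1 and 98.03 CPM in controls and at 71.6, 52.8 and 61.3 CPM in miDrp1KO libraries (log2 fold change −0.60, SE 0.17, adjusted p = 0.368). Mef2d was at 53.7, 42.6 and 43.4 CPM against 39.6, 31.8 and 19.6 CPM (log2 fold change −0.62, SE 0.24, adjusted p = 0.407). Every miDrp1KO library lay below every control for 3 of the 14 kinases and 5 of the 21 factors, against 10.3% of all tested genes, and the genes named here are those with the lowest p in their lists. These are transcript levels and carry no measure of kinase activity.

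**Figure D5:**
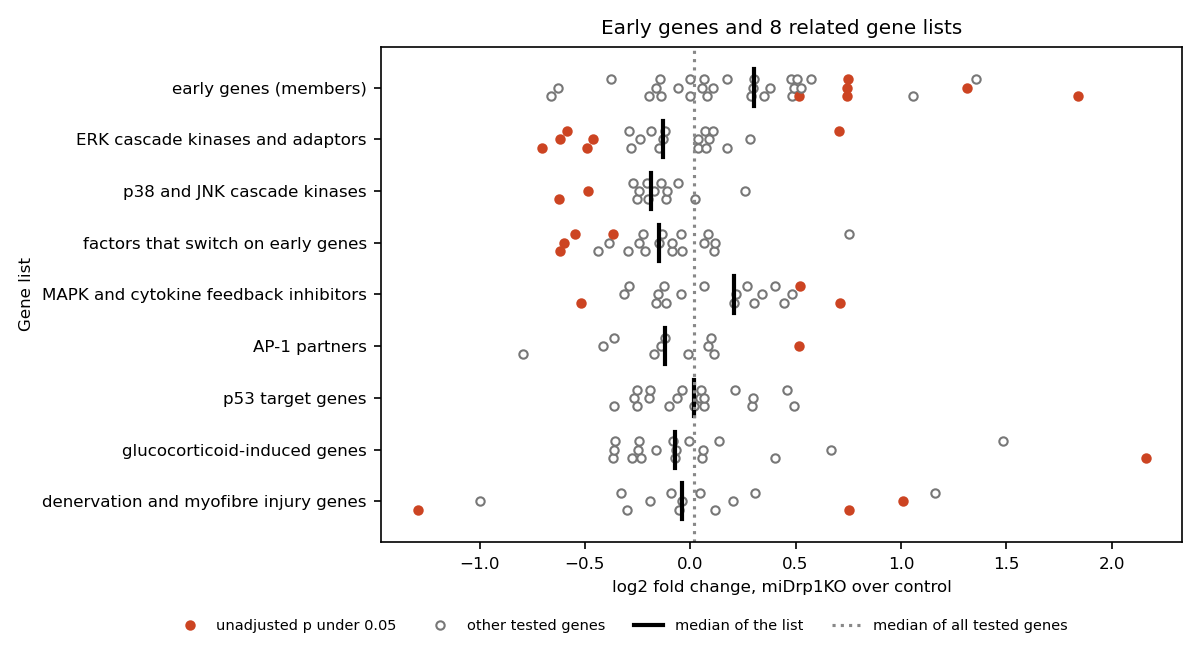
Fitted log2 fold change of miDrp1KO over control (horizontal axis) for each tested gene of the early-gene set and of 8 related lists without its members (rows). Red points have an unadjusted p under 0.05, black bars are list medians (0.30 for the early genes, −0.13, −0.19 and −0.15 for the ERK, p38 and JNK, and factor lists) and the dotted line is the median of all tested genes.

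Feedback inhibitors outside the members had a median of 0.21. At an unadjusted p under 0.05, 2 of 19 tested genes were higher and 1 lower, against 4.68% and 6.22% of all genes. Zfp36l1, a relative of Zfp36 that promotes decay of AU-rich transcripts, was at 14.2, 14.7 and 11.3 CPM in controls and at 22.1, 25.7 and 17.7 CPM in miDrp1KO libraries (log2 fold change 0.71, SE 0.19, adjusted p = 0.362). Dusp8, a JNK and p38 phosphatase, was at 18.5, 12.6 and 12.7 CPM against 11.4, 10.8 and 8.35 CPM (log2 fold change −0.52, SE 0.21, adjusted p = 0.416). AP-1 partners outside the members had a median of −0.12 over 11 tested genes. Among them Mafg, a small MAF protein, had a log2 fold change of −0.36 (SE 0.18) with overlapping groups.

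Denervation and injury genes outside the members had a median of −0.038. Of 15 tested genes, 2 were higher and 1 lower at an unadjusted p under 0.05, against 4.68% and 6.22% of all genes. Runx1, which rises in denervated muscle, was at 4.07, 4.01 and 5.4 CPM in controls and at 6.17, 9.09 and 7.63 CPM in miDrp1KO libraries (log2 fold change 0.75, SE 0.22, adjusted p = 0.379). Myh8, the perinatal myosin of regenerating fibres, was lower, at 1948, 2206 and 2239 CPM against 1576, 622 and 411 CPM (log2 fold change −1.29, SE 0.45, adjusted p = 0.393). The fast fibre myosin Myh4 had the same log2 fold change of −1.29. Myh4 was at 49885, 58256 and 62914 CPM in controls and at 40363, 17190 and 12241 CPM in miDrp1KO libraries. The part of fast fibre myosin reads in the value of Myh8 was not tested.

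Other cell and fibre markers also differed among the libraries. Slow fibre markers summed to 564, 88.4 and 127 CPM in controls and to 137, 846 and 748 CPM in miDrp1KO libraries, with 9 of 9 fitted higher and 0 at an unadjusted p under 0.05. Fast fibre markers, whose sums did not overlap between the groups, were fitted lower in 11 of 12 and adipocyte markers in 8 of 8. At an unadjusted p under 0.05, 3 fast fibre and 4 adipocyte markers were lower, against 6.22% of all genes. Adipocyte markers summed to 498, 1584 and 506 CPM in controls against 735, 197 and 365 CPM in miDrp1KO libraries. Replicate A, which was highest for Junb and Socs3, lay nearest to the controls among the miDrp1KO libraries in its fast, slow and adipocyte sums. Neutrophil markers were scarce, summing to 6.43 to 10.7 CPM over all libraries with 4 of 8 tested, and blood markers summed to 47.7 to 274 CPM with no order by genotype. Fibroblast markers summed to 1384 to 1965 CPM in controls and 1569 to 2528 CPM in miDrp1KO libraries, with 9 of 10 fitted higher, 0 at an unadjusted p under 0.05 and a median of 0.25. Schwann cell markers summed to 38.8 to 54.6 CPM in controls and 42.6 to 74.6 CPM in miDrp1KO libraries, with 6 of 7 tested fitted higher, 0 at an unadjusted p under 0.05 and a median of 0.42. Satellite cell markers summed to 63.9 to 75.7 CPM over all libraries, with 5 of 8 fitted higher and a median of 0.35. At an unadjusted p under 0.05, 1 satellite cell marker was higher and 1 lower. No listed marker was at 0 in every library, and the part of any of these in the levels of the early genes was not tested.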

How the data were processed

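Total RNA from quadriceps was depleted of ribosomal RNA, made into stranded libraries and sequenced on an Illumina HiSeq. The libraries were combined into pools before sequencing, and which library went into which pool is not given in the sources used here. The methods of the study name FastQC for read quality, GRCm38 as the genome, and Rsubread for both alignment and counting. The authors deposited raw counts per Entrez gene, 1 file per library, for 27179 genes, of which 26457 had a count and 874 had no symbol; their own testing used DESeq2 1.30.0. The strand setting and the handling of multi-mapping reads are not given in the sources used here, and 12 members share exonic bases with a gene on the opposite strand.

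Counts were tested here in R 4.3.3 with edgeR 4.0.16 (TMM, filterByExpr and glmQLFit with robust dispersions, with Benjamini-Hochberg adjusted p-values over 16483 genes and a threshold of 0.05). The p-values set the difference between genotypes against the spread of these 6 mice within their genotypes. CPM used TMM library sizes, and levels per kilobase used the exon length in GENCODE M21. DESeq2 1.42.0 and limma 3.58.1 (voom) served as alternatives, with other normalizations and filters, a ribosomal RNA covariate and leaving out each library. Spearman correlations between libraries were 0.960 to 0.985, with no duplicate. On simulated data with 1 dispersion for all genes, 29.8% of log2 changes of 1 and 99.7% of log2 changes of 2 were recovered. The changes were placed only in genes above a minimum mean count. Measured genes differ in spread, so these shares do not carry over to uneven members. Socs3, with a log2 fold change of 1.84, had an edgeR adjusted p of 0.443.

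The members and gene lists were chosen with earlier results of these data known. Every library is given for members with an unadjusted p under 0.05, without overlap between groups or with a log2 fold change beyond 1, and for the most abundant member of each role; further members were added after their values were seen. Of each related list the 2 genes with the lowest p are named, except that some are not reported here.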

Additional observations from a re-analysis of the deposited data

How the results depend on the processing

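With 3 mice per group, log2 changes near 1 are often missed. Control C, with 13989588 counts, had the highest floor, 3 counts standing for 0.219 CPM. The count of members past the adjusted threshold was 0 in edgeR, against 6 at an unadjusted p under 0.05. It was 1 (Junb) with DESeq2, 1 with DESeq2 without independent filtering and 1 with no filter on low counts. DESeq2 gave an adjusted p to 16 of 34 members, and called 82 genes, or 32 without independent filtering, against 2 in edgeR. Members without overlap numbered 6 (17.6%, against 18.0% of all genes). They numbered 11 with upper quartile normalization (32.4% against 17.8%) and 10 without the ribosomal RNA genes and Lars2 (29.4% against 17.9%). Leaving out 1 library at a time gave 7 to 17, while the share over all genes rose from 18.0% to between 23.1% and 37.7%. Without miDrp1KO E there were 17 (50% of members, against 24.7% of all genes). Without control B there were 16 (47.1% against 28.5%), and without control D 12 (35.3% against 23.1%). The members' share was near that of all genes without miDrp1KO F (26.5% against 25.8%). It was below that of all genes without miDrp1KO A (10 members, 29.4% against 37.7%) and control C (7 members, 20.6% against 30.0%). The cause of these shifts was not tested, beyond fewer libraries giving less chance to overlap. The median of the members kept its sign, from 0.22 to 0.39. The count of members at an unadjusted p under 0.05 ran from 4 to 9. It was 9 without miDrp1KO E (26.5%, against 7.18% of all genes) and 4 without control C (11.8% against 10.5%). The share of all genes ran from 5.36% without control D to 17.5% without miDrp1KO A. Upper quartile normalization moved the median of all genes to 0.11.

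Changes near 0 turned sign. Ier2 was at 0.0098 with RLE normalization, 0.096 with upper quartile, 0.0060 without a filter, 0.041 with at least 10 counts in every library, 0.042 without ribosomal RNA genes and 0.033 with the ribosomal RNA covariate. In the same order Sik1 was at 0.0090, 0.089, 0.0064, 0.041, 0.039 and 0.044. Dusp1 was at 0.030 with upper quartile, and Gadd45a at −0.022 with limma voom and −0.0030 with the covariate. Leaving out 1 library at a time gave −1.19 to 0.38 for Atf3, −0.22 to 0.32 for Ier2, −0.13 to 0.0081 for Dusp1, −0.17 to 0.38 for Dusp6, −0.15 to 0.74 for Zfp36, −0.17 to 0.51 for Csrnp1, −0.22 to 0.33 for Sik1, −0.29 to 0.25 for Gadd45a and −0.048 to 0.39 for Cdkn1a. No paired analysis was run, because the sources used here do not link any control mouse to a miDrp1KO mouse.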
